A study of Mus musculus with 12 samples.

Results

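Expression of 10 genes of the integrated stress response and the unfolded protein response was examined in the retina of mice with oxygen-induced retinopathy (OIR). The genes were Atf3, Atf4, Ddit3, Trib3, Chac1, Sesn2, Asns, Herpud1, Hspa5 and Xbp1, taken by name from a table of 57073 gene models, and all 10 were found and tested among 18275 genes with enough counts. The data were 12 libraries of poly-A RNA from retina of C57BL/6 mice aged 17 postnatal days, 6 from mice in normoxic air and 6 from mice whose treatment is given as 75% oxygen, without the duration of exposure or of the return to air. Ddit3 had a second row with 0 counts, and the row with the higher total was used.

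The integrated stress response starts with kinases that phosphorylate the translation factor eIF2, which lowers protein synthesis in general while the mRNA of the transcription factor ATF4 is translated more. ATF4 then raises transcription of genes for further transcription factors, for feedback on the pathway and for amino acid supply. The unfolded protein response shares the kinase PERK with this pathway and adds the sensors IRE1, which splices Xbp1 mRNA, and ATF6, which together raise chaperones and degradation factors of the endoplasmic reticulum (ER). Rod photoreceptors load the ER with rhodopsin, so the retina is a tissue in which this response is well known. Gene counts read neither the translation of Atf4 nor the splicing of Xbp1.

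Total counts per library ranged from 17361979 to 21594618. Whether each library stands for its own animal is not stated, so p-values speak of the spread among these 12 libraries, part of which may be technical. Retina markers were present in all libraries, with summed levels of 5 rod genes between 37000 and 45000 CPM, the usual scaling of counts to the size of the library. Normoxic libraries numbered 1 to 3 and 4 to 6 stood apart, without overlap in 38.6% of tested genes. The chi-square of their counts per degree of freedom was 2.98 to 3.91 for pairs within these sets and 11.1 to 14.1 between them. The OIR sets did not overlap in 19.4% of tested genes and were less distinct. OIR replicates 3 and 4 differed by 4.54, less than any pair among replicates 1 to 3, at 4.78 to 5.18. Some genes fail to overlap by chance in sets of 3 libraries, and no share for other splits was computed. The labels do not name these sets as batches, and the comparison of each member is therefore also given within each set. Beside the result for all libraries, edgeR's adjusted p was under 0.05 for 39.0% of tested genes within numbers 1 to 3 (20.3% higher and 18.6% lower) and for 20.0% within 4 to 6 (11.6% higher and 8.36% lower). In bulk retina, fewer cells of a type and less RNA per cell cannot be told apart.

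The stretches before the transcription start of 5 of these genes are shown because they hold the response elements through which the pathway is known to act, with exact matches in capitals. The windows are those of RefSeq on build GRCm38.p6, another build than that of the count table, and they matched all 10 genes by symbol. They run 5′ to 3′ on the strand of the gene and end at the base before the start. Atf3 is at chr1:191183334-191183483 (minus strand), Chac1 at chr2:119350992-119351241 (plus), Asns at chr6:7693210-7693359 (minus), Herpud1 at chr8:94386279-94386428 (plus) and Hspa5 at chr2:34771940-34772089 (plus).
Atf3: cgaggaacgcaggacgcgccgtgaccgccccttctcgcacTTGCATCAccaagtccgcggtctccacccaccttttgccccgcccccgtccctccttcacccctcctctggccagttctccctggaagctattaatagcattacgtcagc
Chac1: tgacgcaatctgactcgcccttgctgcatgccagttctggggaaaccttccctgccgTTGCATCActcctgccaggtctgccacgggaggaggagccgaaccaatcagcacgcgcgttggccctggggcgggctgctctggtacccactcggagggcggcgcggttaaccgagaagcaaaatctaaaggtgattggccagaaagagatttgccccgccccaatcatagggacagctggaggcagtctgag
Asns: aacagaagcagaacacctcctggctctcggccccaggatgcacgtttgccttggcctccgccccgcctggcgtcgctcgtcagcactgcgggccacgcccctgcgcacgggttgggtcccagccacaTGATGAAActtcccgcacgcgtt
Herpud1: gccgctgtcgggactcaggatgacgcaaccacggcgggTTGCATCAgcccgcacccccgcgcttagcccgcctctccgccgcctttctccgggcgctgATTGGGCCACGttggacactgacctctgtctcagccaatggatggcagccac
Hspa5: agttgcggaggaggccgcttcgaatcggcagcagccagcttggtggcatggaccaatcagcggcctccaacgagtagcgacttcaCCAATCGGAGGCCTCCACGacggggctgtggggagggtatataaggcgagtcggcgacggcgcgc

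Windows from 250 bases before to 50 bases after the start were searched on both strands for 5 motifs. The core of the C/EBP-ATF element bound by ATF4, TGATGNAA, was found in 5 of 10 members and in 3.97% of all 32851 windows. It lay 110 to 103 bases before the start in Atf3, 193 to 186 in Chac1, 112 to 105 in Herpud1 and 23 to 16 in Asns, and after the start in Trib3. The ER stress response element, CCAAT followed after 9 bases by CCACG, was found in Hspa5, 65 to 47 bases before the start, and in 0.119% of windows. Its second type, ATTGG and CCACG with 1 base between them, was found in Herpud1, 52 to 42 bases before the start, and in 0.0365% of windows. TGACGTGG, the core of the unfolded protein response element, was held by 0.676% of windows and TGACGTCA, the cAMP response element, by 1.79%, and these letters were not in the windows of the members. The matches do not overlap each other and are descriptions of sequence only.

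The comparison of OIR with normoxic retinas asked how far these genes differ at the age of 17 postnatal days. Atf3 rose 4.75-fold, Chac1 1.70-fold, Trib3 1.60-fold, Ddit3 1.19-fold, Hspa5 1.15-fold and Xbp1 1.12-fold, while Herpud1 fell by 0.27 on the log2 scale. Atf4, Sesn2 and Asns did not pass the test. Thus 6 of 10 members rose and 1 fell by edgeR's quasi-likelihood test at an adjusted p of 0.05, beside 31.0% of all tested genes called, 16.2% higher and 14.8% lower. The median log2 fold change was 0.18 over the members and -0.008 over all tested genes. The groups did not overlap in 1 member, Atf3, beside 16.1% of all tested genes, 9.47% with OIR above and 6.6% with OIR below.

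**Figure D1:**
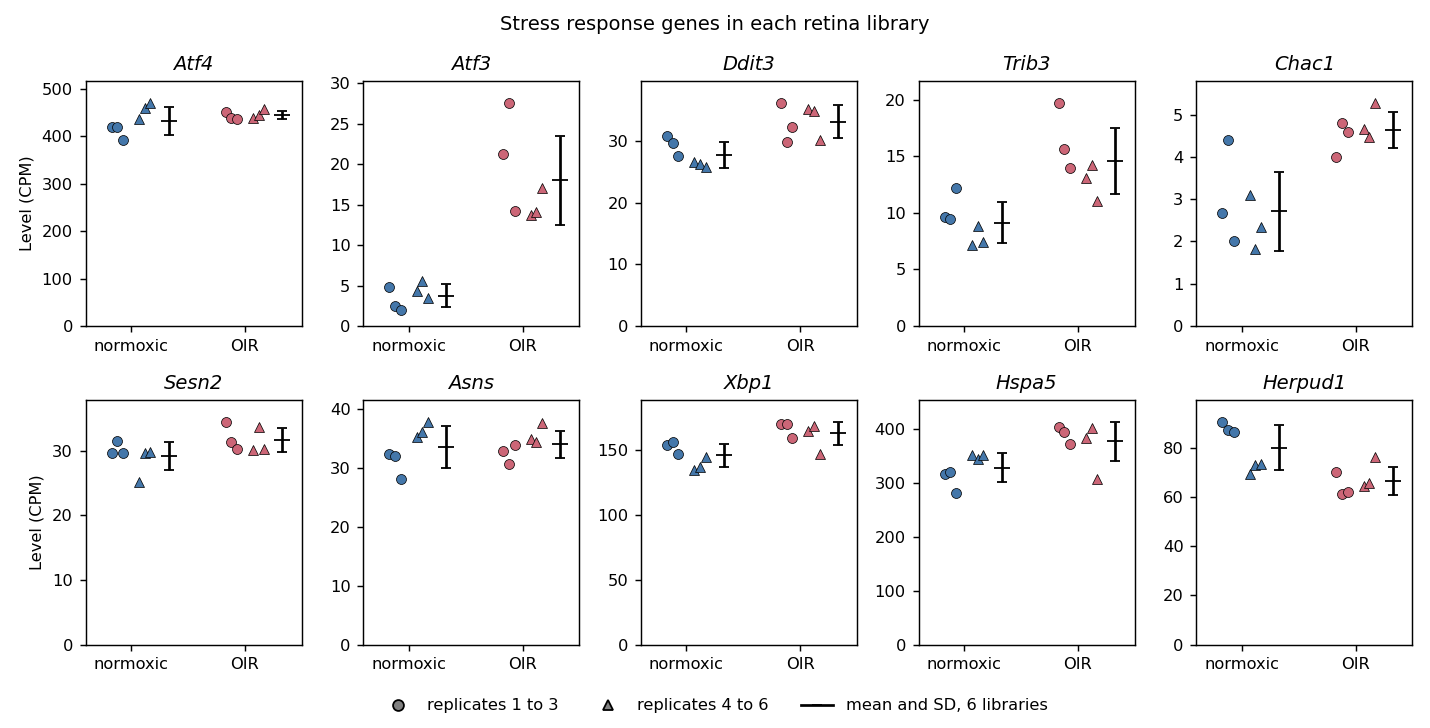
Level of each gene in every library in CPM (axes start at 0), with normoxic libraries in blue and OIR libraries in red; circles are replicates 1 to 3, triangles replicates 4 to 6, and the bar gives mean and SD over 6 libraries. The 6 OIR libraries lie above all normoxic libraries in Atf3, at 13.7 to 27.5 against 2.00 to 5.56 CPM, and the groups overlap in the other genes.

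Per length, Atf4 was the most abundant member, at 184 FPKM (fragments per length of the gene model and per size of the library) in normoxic and 188 in OIR libraries. It was followed in normoxic libraries by Hspa5 (77.7 FPKM), Xbp1 (44.9), Herpud1 (34.3), Ddit3 (16.3), Asns (12.3), Sesn2 (8.41), Trib3 (4.31), Atf3 (1.75) and Chac1 (1.67). Neighbours in this order did not overlap between libraries except Atf3 and Chac1, which ranged from 0.936 to 2.59 and from 1.12 to 2.70 FPKM. In OIR libraries, Atf3 moved above Trib3, with levels of 8.30 and 6.87 FPKM. There Atf3 overlapped both neighbours in the order, Sesn2 at 9.09 FPKM and Trib3, and no other pair of neighbours overlapped.

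**Figure D2:**
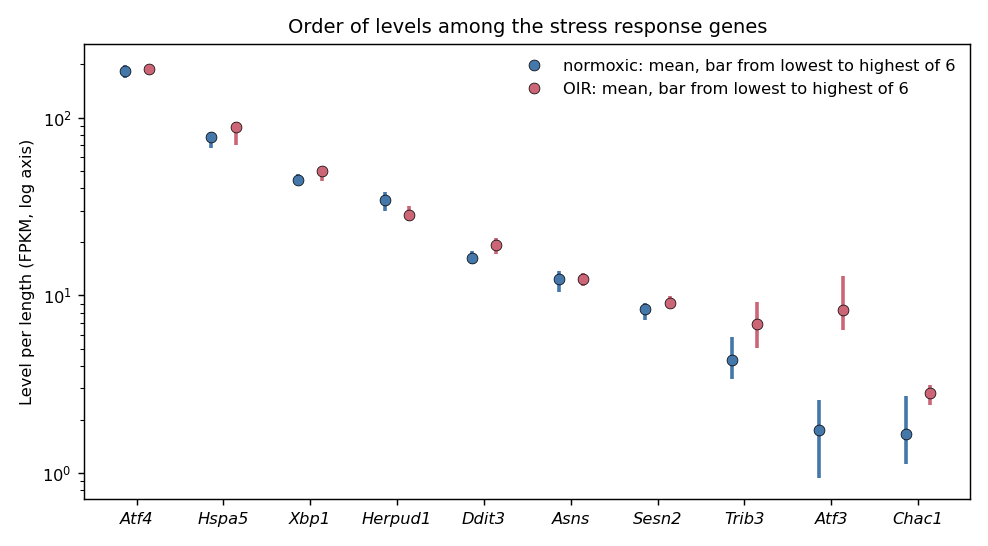
Level per length in FPKM on a log axis for the 10 genes, ordered by their normoxic mean; points are means and bars run from the lowest to the highest of 6 libraries. The order from Atf4 at 184 FPKM to Chac1 at 1.67 FPKM is kept in OIR except for Atf3, which moves from 1.75 to 8.30 FPKM.

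Atf4 encodes the transcription factor at the centre of the pathway (chromosome 15, 80139385 to 80141742, build GRCm39). Its level was 392 CPM in the lowest, 428 in the median and 470 in the highest normoxic library, and 437, 443 and 459 CPM in the OIR libraries. All OIR libraries lay inside the normoxic range. Its log2 fold change was 0.04 ± 0.05 (SE, 95% interval -0.06 to 0.14; edgeR adjusted p = 0.558). It was 0.11 within numbers 1 to 3 (adjusted p = 0.0527) and -0.02 within 4 to 6 (adjusted p = 0.809), and the difference between the sets did not pass (adjusted p = 0.223).

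Atf3 encodes a bZIP transcription factor that ATF4 induces and that neurons also switch on after injury (chromosome 1, 190902493 to 190950236). It was low in normoxic libraries, at 2.00 to 5.56 CPM with a median of 3.90, and reached 13.7 to 27.5 CPM in OIR libraries, with a median of 15.7. The highest OIR libraries were replicates 2 and 1, at 27.5 and 21.2 CPM, and the other 4 lay between 13.7 and 17.1. Mean levels were 3.76 ± 1.38 and 18.0 ± 5.47 CPM (SD, n = 6 in each group), a log2 fold change of 2.25 ± 0.22 (SE; edgeR adjusted p = 5.0e-07). Of all tested genes, 178 had a higher log2 fold change. Within numbers 1 to 3 the rise was 6.75-fold (adjusted p = 7.9e-09) and within 4 to 6 it was 3.36-fold (adjusted p = 2.5e-06). The difference between these sets was -1.01 ± 0.35 on the log2 scale (edgeR interaction term, adjusted p = 0.0827).

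Ddit3 encodes CHOP, a C/EBP-family factor tied to cell death under lasting stress (chromosome 10, 127126643 to 127132157). Normoxic libraries ranged from 25.8 to 30.9 CPM with a median of 27.1, and OIR libraries from 29.9 to 36.2 CPM with a median of 33.7. OIR replicates 2 and 6, at 29.9 and 30.2 CPM, reached into the normoxic range and the other 4 lay above it. This was a log2 fold change of 0.25 ± 0.07 (SE; edgeR adjusted p = 0.00765). Within numbers 4 to 6 it was 0.35 (adjusted p = 0.00846), and within 1 to 3 it was 0.16 and did not pass (adjusted p = 0.134). The 3′ end of Ddit3 overlaps that of Mars1 on the opposite strand, and no source used here gives the strand setting of the counting, so reads there are less certain. Mars1 itself had a log2 fold change of -0.01 (adjusted p = 0.947).

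Trib3 encodes a pseudokinase that binds ATF4 and CHOP and restrains the pathway (chromosome 2, 152179342 to 152185952). It lay at 7.20 to 12.2 CPM in normoxic libraries (median 9.19) and at 11.1 to 19.7 CPM in OIR libraries (median 14.1). OIR replicate 6 alone, at 11.1 CPM, was below the highest normoxic library, replicate 3. The log2 fold change was 0.68 ± 0.14 (SE; edgeR adjusted p = 0.00112). The rise was 1.58-fold within numbers 1 to 3 (edgeR adjusted p = 6.3e-04) and 1.64-fold within 4 to 6 (adjusted p = 0.00218). With the level of lens markers as a covariate, Trib3 and Atf3 were the 2 of 10 members that passed (edgeR adjusted p = 0.0141 and 1.4e-04), beside 17.6% of all tested genes, 10.2% higher and 7.35% lower.

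Chac1 encodes an enzyme that cleaves glutathione (chromosome 2, 119181710 to 119184862). It was the least counted member, with 302 counts over the normoxic and 513 over the OIR libraries. Levels were 1.83 to 4.39 CPM in normoxic libraries (median 2.51) and 3.99 to 5.27 CPM in OIR libraries (median 4.63). Normoxic replicate 2, at 4.39 CPM, reached above OIR replicate 1, the lowest of its group. OIR exceeded normoxic libraries by 0.76 ± 0.19 on the log2 scale (SE; edgeR adjusted p = 0.00446), with 0.98 within numbers 4 to 6 (adjusted p = 0.00805) and 0.56 within 1 to 3 (adjusted p = 0.0852).

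Sesn2 and Asns are ATF4 targets that did not pass the test. Sesn2, which encodes a stress-induced inhibitor of mTORC1 signalling and is a p53 target as well (chromosome 4, 132219343 to 132237812), lay at 25.1 to 31.5 CPM (median 29.6) in normoxic and at 30.2 to 34.5 CPM (median 30.8) in OIR libraries. Its log2 fold change was 0.12 ± 0.06 (SE, 95% interval -0.01 to 0.25; edgeR adjusted p = 0.161). It was 0.09 within numbers 1 to 3 (adjusted p = 0.414) and 0.16 within 4 to 6 (adjusted p = 0.260). Asns encodes asparagine synthetase, the enzyme through which the amino acid branch of the pathway was worked out (chromosome 6, 7675169 to 7693254). Its levels were 28.1 to 37.9 CPM (median 33.8) in normoxic and 30.7 to 37.7 CPM (median 34.1) in OIR libraries, with all OIR libraries inside the normoxic range. Between the groups the log2 fold change was 0.02 ± 0.07 (SE, 95% interval -0.13 to 0.17; edgeR adjusted p = 0.877), with 0.08 within numbers 1 to 3 (adjusted p = 0.472) and -0.03 within 4 to 6 (adjusted p = 0.831).

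Among the genes of the ER arm, Xbp1 encodes the transcription factor that IRE1 activates by splicing (chromosome 11, 5470659 to 5475893). It lay at 135 to 156 CPM in normoxic libraries (median 146) and at 147 to 170 CPM in OIR libraries (median 167). OIR replicate 6, at 147 CPM, was the only OIR library inside the normoxic range. Xbp1 thus rose by 0.16 ± 0.05 on the log2 scale (SE; edgeR adjusted p = 0.0177), with 0.13 within numbers 1 to 3 (adjusted p = 0.0431) and 0.21 within 4 to 6 (adjusted p = 0.0200).

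Hspa5 encodes BiP, the main chaperone of the ER lumen, which also holds the ER stress sensors inactive (chromosome 2, 34661982 to 34667559). Normoxic libraries ranged from 282 to 352 CPM with a median of 332, and OIR libraries from 307 to 403 CPM with a median of 389. OIR replicate 6 stood apart at 307 CPM, and the other 5 OIR libraries, at 372 to 403 CPM, lay above every normoxic library. Replicate 6 also differed from the other OIR libraries across genes in general, with a chi-square of 7.14 to 11.3 per degree of freedom. The remaining OIR pairs had 3.84 to 8.95. Replicate 6 had the highest mean level of lens markers among OIR libraries, 0.868 (log2 of FPKM plus 1). OIR replicate 5 came next at 0.712, with Hspa5 at 402 CPM. The part of lens tissue in the level of Hspa5 was not tested. The log2 fold change of Hspa5 was 0.20 ± 0.07 (SE; edgeR adjusted p = 0.0306), and 0.25 without OIR replicate 6 (adjusted p = 0.00186). Within numbers 1 to 3 it was 0.35 (adjusted p = 1.1e-05) and within 4 to 6 it was 0.06 (adjusted p = 0.643), a difference between the sets of -0.29 ± 0.10 that did not pass (edgeR interaction term, adjusted p = 0.0806). The call was also lost on leaving out any of 7 other libraries, namely normoxic replicates 1, 2 and 3 and OIR replicates 1, 2, 4 and 5 (adjusted p = 0.0593 to 0.0738), and with limma on FPKM (adjusted p = 0.0738).

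Herpud1 encodes a membrane protein that organises ER-associated degradation, and it was the only member with a lower level in OIR that passed (chromosome 8, 95113066 to 95122005). Normoxic libraries lay at 69.4 to 90.5 CPM (median 79.9) and OIR libraries at 61.2 to 76.1 CPM (median 65.0). The 3 highest levels, 86.4 to 90.5 CPM, were those of normoxic replicates 1 to 3, while normoxic replicates 4 to 6, at 69.4 to 73.5 CPM, overlapped the OIR libraries of the same numbers, at 64.6 to 76.1. The log2 fold change was -0.27 ± 0.07 (SE; edgeR adjusted p = 0.00903). It was -0.45 within numbers 1 to 3 (adjusted p = 3.5e-06) and -0.06 within 4 to 6 (adjusted p = 0.586), and this difference between the sets passed (0.39 ± 0.09; edgeR interaction term, adjusted p = 0.0125), which it did in 8.21% of all tested genes, 4.21% with a higher and 4.00% with a lower effect in numbers 4 to 6.

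**Figure D3:**
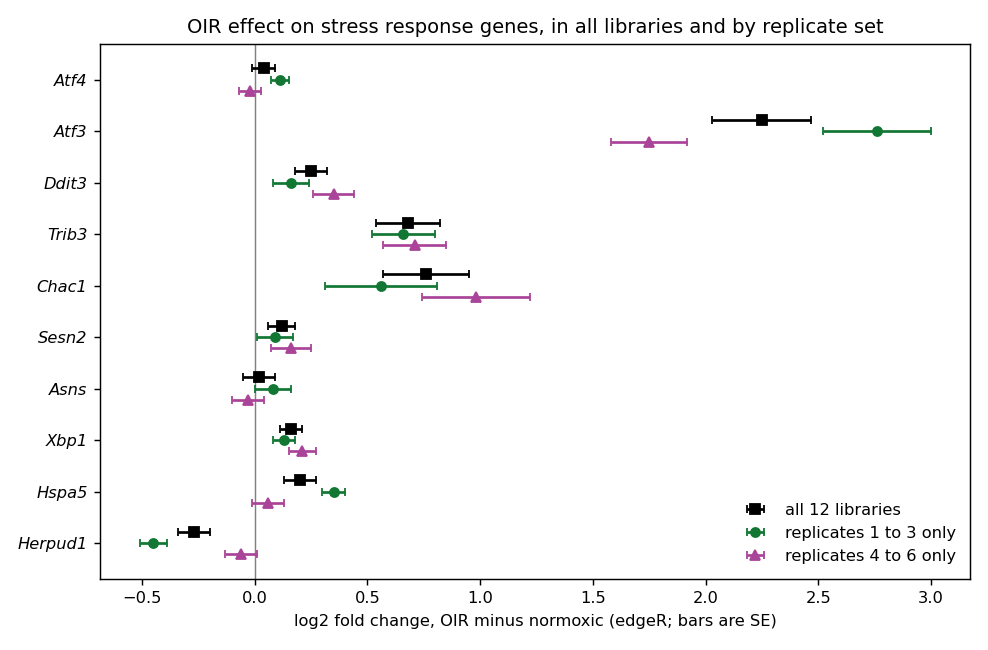
log2 fold change of OIR against normoxic libraries with its SE for each gene, over all 12 libraries (black squares), replicates 1 to 3 (green circles) and replicates 4 to 6 (purple triangles). Trib3 and Xbp1 have close values in both sets, while Atf3 lies at 2.76 and 1.75, Herpud1 at -0.45 and -0.06 and Hspa5 at 0.35 and 0.06.

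The members varied between the replicate sets in the normoxic group itself. Normoxic replicates 4 to 6 did not overlap replicates 1 to 3 in 7 of 10 members, beside 38.6% of all tested genes. Atf4, Asns and Hspa5 were higher in replicates 4 to 6, and Ddit3, Trib3, Herpud1 and Xbp1 were lower. In the OIR group the sets did not overlap in 1 of 10 members, beside 19.4% of all tested genes. That member was Asns, higher in replicates 4 to 6, at 34.4 to 37.7 against 30.7 to 33.9 CPM. Between OIR and normoxic libraries, 5 of 10 members passed the test within numbers 1 to 3, beside 39.0% of all tested genes, and 5 of 10 within 4 to 6, beside 20.0%. Markers of the pigment epithelium separated the same normoxic sets, with summed levels of 13.8 to 16.6 CPM in replicates 1 to 3 and 106 to 118 in 4 to 6, and their part in the differences between sets was not tested.

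Deviations from the group mean in log2 CPM were compared over 12 libraries, scaled to unit SD, as a description of which genes varied alike. The genes nearest to Ddit3 among 12319 candidates were Gorasp1, Arhgdib and Usp21, with root mean square differences of 0.361, 0.407 and 0.415 SD. Those nearest to Hspa5 were Atrip, Dynlt1b and Rpl7l1, at 0.272, 0.352 and 0.357 SD. Among the members themselves, Xbp1 was nearest to Ddit3, at 0.795 SD, and Herpud1 was farthest from Hspa5, at 1.769 SD. Only the group mean was taken out, so differences between the replicate sets remain in this measure. In normoxic replicates 4 to 6, Ddit3, Xbp1 and Herpud1 were lower and Hspa5 was higher than in 1 to 3.

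The other genes of the pathway were described by role in 8 lists, of which 126 of 128 genes in the table were tested. Of these, 38 rose, 6 fell and 82 did not pass the test, so 34.9% were called beside 31.0% of all tested genes. The shares called were 33.3% for sensors and 35.0% for degradation and translocation, near that background as were the 3 of 10 mitochondrial genes, and 52.9% for ATF4 partners and targets, 70.0% for amino acid import, 42.9% for amino acid synthesis and 23.5% for ER chaperones. Of the aminoacyl-tRNA synthetases, 2 of 20 were called. Sensors and eIF2 control had 4 of 18 genes that rose and 2 that fell, with a median log2 fold change of 0.10. Eif2ak3, which encodes the kinase PERK, rose 1.24-fold, from 36.7 ± 2.35 to 45.5 ± 3.77 CPM (SD, n = 6; edgeR adjusted p = 8.7e-04). Ppp1r15b, which encodes the constitutive subunit of the eIF2 phosphatase, rose 1.17-fold (adjusted p = 0.00182). Impact, which encodes an inhibitor of the amino acid sensing kinase GCN2, fell by 0.35 on the log2 scale, from 169 ± 18.1 to 133 ± 9.21 CPM (adjusted p = 5.1e-04). The summed level of the list overlapped between the groups, at 922 to 940 CPM in normoxic and 910 to 941 CPM in OIR libraries.

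Partners of ATF4 and other targets of ATF4 or CHOP had the highest list median, 0.43, with 9 of 17 tested genes that rose and 8 that did not pass. Stc2, a secreted glycoprotein gene, rose 4.87-fold, from 3.91 ± 0.398 to 19.1 ± 2.07 CPM (SD, n = 6; edgeR adjusted p = 2.1e-11). Eif4ebp1, which encodes a repressor of cap-dependent translation, rose 4.74-fold, from 1.66 ± 0.343 to 7.89 ± 1.12 CPM (adjusted p = 9.9e-09). Cebpb, which encodes a C/EBP partner of ATF4, rose 4.09-fold, from 1.54 ± 0.334 to 6.34 ± 1.31 CPM (adjusted p = 1.9e-07). The groups did not overlap in these 3 genes, which were named for the smallest adjusted p of the list. Over the list they did not overlap in 9 of 18 genes, beside 16.1% of all tested genes. Fgf21, with 0 counts in the normoxic and 4 in the OIR libraries, was not tested.

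Amino acid import had 5 of 10 tested genes that rose and 2 that fell. Slc7a5, which encodes the large neutral amino acid exchanger, rose 1.68-fold, from 61.4 ± 7.22 to 103 ± 8.40 CPM (SD, n = 6; edgeR adjusted p = 3.9e-07). Slc1a4, a transporter gene for serine and alanine, rose 1.71-fold (adjusted p = 7.0e-07), and Slc7a1, a transporter gene for cationic amino acids, rose 1.65-fold (adjusted p = 7.8e-06). Synthesis of serine, one-carbon units and other amino acids had 5 of 14 genes that rose and 1 that fell. The mitochondrial folate enzyme gene Mthfd1l rose 1.75-fold, the proline synthesis gene Pycr1 2.01-fold and the mitochondrial serine hydroxymethyltransferase gene Shmt2 1.28-fold (adjusted p = 2.9e-06, 6.4e-04 and 3.3e-04). Cytosolic aminoacyl-tRNA synthetases, several of which are known ATF4 targets, had a median of -0.01, and 18 of 20 did not pass. Dars, for aspartate, rose 1.15-fold (adjusted p = 0.0102), and Farsb, for phenylalanine, fell by 0.19 on the log2 scale (adjusted p = 0.00590).

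ER chaperones and folding enzymes had 4 of 17 genes that rose, a share of 23.5%, with a median log2 fold change of 0.07. P4hb, which encodes a protein disulfide isomerase that is also a subunit of collagen prolyl hydroxylase, rose 1.36-fold, from 204 ± 7.18 to 279 ± 7.61 CPM (SD, n = 6; edgeR adjusted p = 1.2e-07). The disulfide isomerase genes Pdia3 and Pdia6 rose 1.20-fold and 1.18-fold (adjusted p = 0.00146 and 0.00221). Hsp90b1, Calr, Canx, Dnajb9 and Hyou1, further chaperone genes chosen after their values were seen, had log2 fold changes of 0.14, 0.08, -0.03, 0.01 and 0.06 and did not pass (adjusted p = 0.0889, 0.311, 0.545, 0.938 and 0.409). Of these, Hsp90b1 and Hyou1 passed within numbers 1 to 3 (edgeR adjusted p = 0.00246 and 0.035) but not within 4 to 6 (0.65 and 0.871). ER-associated degradation and translocation had 7 of 20 genes that rose, with a median of 0.13. The vesicle coat gene Sec24d rose 1.47-fold, and Ssr3 and Ssr1, which encode subunits of a complex at the translocon, 1.17-fold and 1.13-fold (adjusted p = 3.4e-04, 0.00254 and 0.00518). Mitochondrial chaperones and proteases had 3 of 10 genes that rose, Clpx (1.13-fold), Hspa9 (1.14-fold) and Dnaja3 (1.11-fold), with adjusted p = 0.00279, 0.00819 and 0.0217. The call of Dnaja3 was lost on leaving out normoxic replicate 3, OIR replicate 2 or OIR replicate 5 (highest adjusted p = 0.0567) and with no expression filter. Of the called genes named from the 8 lists, Eif2ak3, Ppp1r15b, Farsb, Ssr3, Ssr1, Hspa9 and Dnaja3 did not pass within numbers 4 to 6. With the lens covariate, Ppp1r15b, Dars, Farsb, Pdia3, Pdia6, Ssr1, Clpx, Hspa9 and Dnaja3 did not pass.

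**Figure D4:**
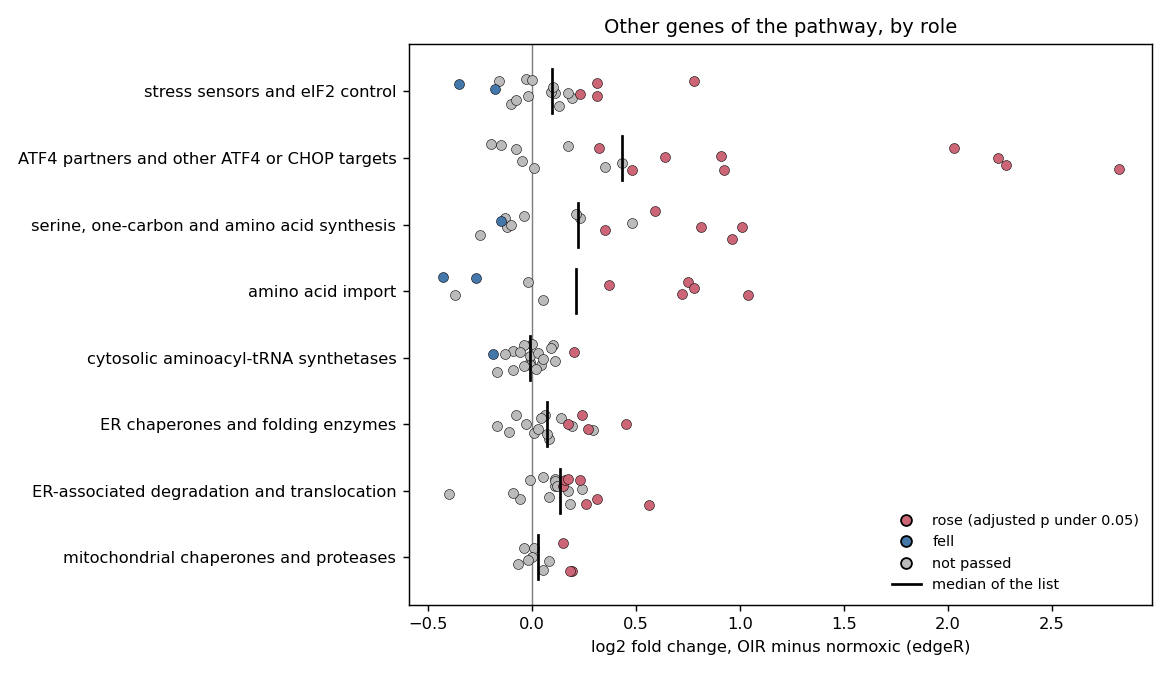
log2 fold change of OIR against normoxic libraries for each tested gene of 8 lists, with genes that rose in red, genes that fell in blue, those that did not pass in grey and the list median as a black bar; vertical spread inside a list is for display. The median is 0.43 for partners and targets of ATF4 or CHOP and -0.01 for aminoacyl-tRNA synthetases.

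Markers of several cell types moved with the groups. Over all libraries, 16.2% of all tested genes rose and 14.8% fell, which stands beside the counts below. A list with 1 called gene, as for rods or B and plasma cells, is not read as a change of that cell type. Summed CPM did not overlap for reactive glia (7 of 7 genes rose, 243 to 291 in normoxic against 794 to 1420 in OIR libraries), endothelium (5 of 6 rose, 217 to 279 against 359 to 496), pericytes and smooth muscle (6 of 6 rose, 160 to 213 against 434 to 651) or microglia and macrophages (6 of 6 rose, 36.4 to 43.6 against 81.5 to 109). Bipolar cell markers fell in 5 of 5 genes, with sums of 1280 to 1490 against 963 to 1090 CPM. Ganglion cell markers fell in 3 of 7 genes, with sums of 677 to 939 against 484 to 712 CPM, and Muller glia markers fell in 4 and rose in 1 of 5, at 2450 to 2820 against 1880 to 2530 CPM. Red blood cell genes rose in 4 of 4 (55.5 to 132 against 114 to 235 CPM), lens genes fell in 3 of 6 tested (5.42 to 39.3 against 1.54 to 13.0 CPM), rod genes fell in 1 of 5 and B and plasma cell genes rose in 1 of 3 tested (48.7 to 70.7 against 51.8 to 62.9 CPM). Several of these differences depended on the replicate set. Of all tested genes, 20.3% rose and 18.6% fell within numbers 1 to 3, and 11.6% rose and 8.36% fell within 4 to 6. Pigment epithelium genes did not pass over all libraries (sums of 13.8 to 118 against 45.2 to 95.9 CPM), but 4 of 5 rose within numbers 1 to 3 (13.8 to 16.6 against 45.2 to 60.3 CPM) and 1 of 5 fell within 4 to 6 (106 to 118 against 67.3 to 95.9 CPM), and the difference between the sets passed in 4 of 5. Muller glia markers had sums of 2770 to 2820 against 1880 to 2200 CPM within numbers 1 to 3, where 4 fell and 1 rose, and of 2450 to 2570 against 2320 to 2530 CPM within 4 to 6, where 3 fell and 2 did not pass. That difference between the sets passed in 4 of 5 genes. Lens genes fell in 3 of 5 tested within numbers 1 to 3, while the 6 tested within 4 to 6 did not pass (9.10 to 14.2 against 1.54 to 13.0 CPM). For the lens genes the smallest adjusted p of the difference between the sets was 0.0715 (edgeR interaction term, Crybb2). All 7 reactive glia, 6 pericyte and 6 microglia genes rose within each set, but the difference between the sets passed in 3 of the reactive glia genes. Ganglion cell markers fell in 3 and rose in 1 of 7 within numbers 1 to 3, and fell in 6 of 7 within 4 to 6. The difference between the sets passed in 3 of 7 ganglion cell, 2 of 5 bipolar cell, 2 of 4 red blood cell and 1 of 3 B and plasma cell genes. Of all tested genes it passed in 8.21%. No marker was at 0 in all libraries of a group. The part of these cell types in the changes of Atf3, Trib3, Chac1 and the other members was not tested.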

How the data were processed

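The members and gene lists were chosen with earlier results of these data known. RNA of 12 retina libraries was captured by poly-A, per the labels' protocols. The authors deposited whole-number counts and FPKM per gene, per the file headers. Trimmomatic, HISAT2 version 2.0.5, HTSeq and build GRCm39 are named without roles, per the submitters' processing notes. Not given in the sources used here: annotation release and strand setting. For 8 members the length behind FPKM was below the deposited length column.

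Groups and replicate numbers came from sample titles. The test for counts was that of edgeR version 4.0.16 under R version 4.3.3, with filterByExpr (minimum count 10, total 15), TMM scaling, quasi-likelihood fits and Benjamini-Hochberg adjustment over 18275 genes, threshold 0.05. CPM are TMM-scaled. The procedure was tested on simulated data. Counts limit precision, from 302 (Chac1) to 49260 (Atf4) per group. No libraries were merged, since any pair within a group had a chi-square of at least 2.98 per degree of freedom.

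Named were all members and, per pathway list, up to 3 called genes with the smallest adjusted p. Also named from the lists were Fgf21 and, after their values were seen, Hsp90b1, Calr, Canx, Dnajb9 and Hyou1. Likeness used log2(CPM + 1) for genes with a mean FPKM of at least 1. Alternatives were median-of-ratios factors, library totals, 2 other filters, robust dispersion, DESeq2 version 1.42.0, limma version 3.58.1 on log2(FPKM + 1) or with 0.1, a replicate block, replicate sets, a lens covariate and leaving out each library.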

Additional observations from a re-analysis of the deposited data

Results flagged for a closer look

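Of 66 groups of 6 libraries checked for 33 named genes, 3 had a library that stood apart from the others, where chance gives about 1 in 20 groups. Hspa5 in OIR replicate 6 was at 307 CPM against 372 to 403 in the other OIR libraries. Sesn2 in normoxic replicate 4 was at 25.1 CPM against 29.6 to 31.5, and without that library its log2 fold change was 0.08 (edgeR adjusted p = 0.344). Eif4ebp1 in OIR replicate 3 was at 5.75 CPM against 7.66 to 8.77.

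The OIR effect differed between replicate numbers 4 to 6 and 1 to 3 in 2 named genes. For Herpud1 the difference was 0.39 on the log2 scale (edgeR interaction term, adjusted p = 0.0125), and for Ssr3 it was -0.22 (adjusted p = 0.0298).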

How the results depend on the processing

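With the lens level as a covariate, 3211 of all genes, 2 members and 27 genes of the pathway lists passed, against 5673, 7 and 44. The mean lens level was lower in OIR (0.131 to 0.868 against 0.505 to 1.72, log2 of FPKM plus 1), so lens level and group cannot be fully told apart there. The members not past the test with it were Ddit3 (0.22), Chac1 (0.54), Herpud1 (-0.19), Hspa5 (0.07) and Xbp1 (0.12), and Asns was at -3.4e-03. Within numbers 4 to 6, 3671 genes passed, Herpud1 (-0.06) and Hspa5 (0.06) did not, and Atf4 (-0.02) and Asns (-0.03) turned in sign without passing. Within numbers 1 to 3, Ddit3 (0.16) and Chac1 (0.56) did not pass. Hspa5 did not pass with limma on log2(FPKM + 1) or log2(FPKM + 0.1), at 0.19 in each. On leaving out each library, 6 or 7 members passed, Hspa5 ranged from 0.16 to 0.25 and Asns from -0.03 to 0.05. Of the lists, sensors had 10 called genes within numbers 1 to 3 and 3 within 4 to 6, against 6, and degradation and translocation had 11 and 2, against 7. ER chaperones had 8 called genes and tRNA synthetases 6 within numbers 1 to 3, and 7 and 4 with the replicate set as a term, against 4 and 2. Mitochondrial genes had 1 within numbers 4 to 6, against 3. These counts within the sets moved in the same direction as those of all tested genes. Of all tested genes, 39.0% were called within numbers 1 to 3 and 20.0% within 4 to 6, against 31.0%. With the lens covariate, sensors had 3 called genes, degradation and translocation 4, ER chaperones 1, and synthetases and mitochondrial genes 0. The share of all tested genes called was 17.6% there. Whether the lists moved more than all genes was not tested. Causes were not tested.

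Replicate numbers gave no clear pairing of the libraries: deviations of same-numbered libraries correlated at -0.0167 to 0.118, and not every library correlated best with its own number. The normoxic and OIR libraries numbered 3 did correlate best with each other, at 0.118. These deviations also hold the differences between the replicate sets, so whether some libraries were paired is not settled. With the replicate number as a block, 5675 genes, 50 list genes and 7 members passed, and no member's call changed.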
